A study of Mus musculus with 8 samples.

Results

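The 10 heat shock chaperone genes described here were chosen by name and followed through 8 RNA sequencing libraries: Hspa1a, Hspa1b, Hspa8, Hsph1, Hspb1, Hspe1, Hspd1, Dnajb1, Hsp90aa1 and Hsp90ab1. They are 10 of the 55487 Ensembl genes with a value in each library. All 10 were matched by identifier to a GRCm38 symbol and all 10 passed the filter for testing (at least 4 libraries with 1 or more FPKM, which are fragments per kilobase, scaled for the size of the library), which 13032 genes passed. The study concerns tumor-infiltrating T cells under tacrolimus given at intervals. The libraries came from C57BL/6 mice carrying subcutaneous B16F10 melanomas. Tumors had reached roughly 50 mm3, 7 to 9 days from implantation, when treatment started. The tacrolimus group (4 mice) received the calcineurin inhibitor tacrolimus (FK506) intraperitoneally at 3 mg/kg every 5 days, and the vehicle group (4 mice) received vehicle on the same schedule. In both groups tumors were taken 6 days after treatment onset and cells labelled CD8+ tumor-infiltrating lymphocytes were sorted from them, giving 1 library per mouse. The series text calls the second group untreated, while its sample labels say vehicle. Age and sex of the mice are not given in the sources used here.

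Heat shock chaperones bind unfolded proteins and help them fold. The HSP70 proteins work in cycles of ATP binding and hydrolysis that are driven by J-domain partners and reset by nucleotide exchange factors, and HSP90 takes over clients such as kinases and steroid receptors. Some of the genes are transcribed strongly only when heat shock factor 1 (HSF1) is released by damaged protein, and others are expressed at high level in all cells. In tissue that is digested and sorted, the inducible genes are also known to respond to the handling itself. The inducible members here are Hspa1a and Hspa1b (the stress HSP70 pair), Dnajb1 (their J-domain partner, HSP40), Hsph1 (an HSP110 nucleotide exchange factor), Hspb1 (a small heat shock protein, HSP27 family) and Hsp90aa1 (HSP90 alpha). The constitutive members are Hspa8 (HSC70), Hsp90ab1 (HSP90 beta), Hspd1 (the chaperonin HSP60) and Hspe1 (its lid HSP10). Hspd1 and Hspe1 act in the mitochondrial matrix, so only 8 of the 10 members encode chaperones that work mainly in the cytosol and nucleus. This division is by textbook knowledge, and heat also raises Hspd1 and Hspe1.

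HSF1 binds arrays of the unit GAA in alternating orientation, and the start regions of 7 members were available from RefSeq (GRCm38.p6; 10 windows of 250 bases before to 50 after an annotated start). Hspa8, Hsp90aa1 and Hsp90ab1 have no window. Both strands were searched for pairs of units, GAANNTTC or TTCNNGAA, which read the same on both strands. Of 32851 windows of this length, 15.1% held such a pair, and 6 of the 7 members held at least 1 in some window. A run of 3 units (GAANNTTCNNGAA or TTCNNGAANNTTC) was in 0.603% of windows, and a run of 4 units, in either orientation, was in 0.0244%. Runs of 3 contain the pairs, and runs of 4 contain both. The sequences below are shown because they carry these units next to the members whose levels are compared. Each is written 5′ to 3′ on the strand of the gene, with matched units in capitals.
Hspa1a, chr17:34972157-34972286, minus strand, the 130 bases before its start: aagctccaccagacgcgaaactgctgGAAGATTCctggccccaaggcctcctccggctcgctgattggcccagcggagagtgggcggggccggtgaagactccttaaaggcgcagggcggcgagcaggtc
Hspa1b, chr17:34959239-34959368, minus strand, the 130 bases before its start: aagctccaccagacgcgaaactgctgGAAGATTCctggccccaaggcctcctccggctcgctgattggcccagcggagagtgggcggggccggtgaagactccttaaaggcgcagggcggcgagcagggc
Hspe1, chr1:55088054-55088083, plus strand: gtccgTTCTAGAACCTTCCGGAAggccccg
Hsph1, chr5:149636353-149636382, minus strand: ttgggtagaatctTTCTCGAAggctcgaga
Hspb1, chr5:135887798-135887831, plus strand: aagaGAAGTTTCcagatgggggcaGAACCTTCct

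The Hspa1a and Hspa1b start regions differ at 1 of these 130 bases and at 3 of the 250 bases before the start, and each holds a single pair whose first base lies at -104 from the start. Hspe1 and Hspd1 are divergent neighbours on chromosome 1. The stretch printed for Hspe1 is a run of 4 units and lies within the 216 bases between the Hspe1 start and an Hspd1 start on the opposite strand, before both. Hspd1 has another annotated start, 95 bases to the other side of the Hspe1 start, from which the run lies inside the gene and whose window holds no pair. The first base of the run lies at -89 from the Hspe1 start. Hspb1 holds 2 separate pairs, at -117 and -97. Hsph1 holds 1 pair before its start and a run of 3 units just after it. No pair was found in either window of Dnajb1, which says only that these letters are not in these 300 bases. A match is a description of the sequence and was not tested as a binding site.

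The labelled cell type was checked against marker genes before the chaperones were compared. Melanoma markers (12 genes) summed to between 19182 and 34540 FPKM per library and T cell markers (15 genes) to between 57.4 and 1807 FPKM. The melanoma marker sum was thus above the T cell marker sum in every library. Marker sums do not give the share of RNA from each cell type. T cell markers ran from 57.4 to 391 FPKM with tacrolimus and from 374 to 1807 with vehicle, and macrophage and monocyte markers (15 genes) from 302 to 729 and from 573 to 2484. All 15 genes of either list were tested, and all had a lower mean with tacrolimus. Erythroid markers (5 genes, mostly globins) went the other way, with all 5 higher in mean with tacrolimus, and their sum of 116 to 7897 FPKM was above that of the T cell markers in 7 of 8 libraries. Vehicle replicate 1 stood apart, with the highest T cell, macrophage, neutrophil and dendritic cell sums and the lowest melanoma sum of the 8 libraries. A chaperone level in these libraries is therefore a level over a mixture, and fewer cells of a type cannot be told apart from less RNA per cell. The estimated depth was 15822800 to 19723900 fragments per library. Over the genes tested, the median difference between the groups was -0.19 on the log2(FPKM + 1) scale, and 75.7% of genes had a lower mean with tacrolimus. After median-of-ratios scaling that median was 0.01 and 49.1% were lower, so a log2 difference near -0.2 in the values as deposited is that of a typical gene.

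The members spanned a wide range of levels in FPKM, which is scaled for transcript length. Averaged over the 8 libraries, Hsp90aa1 was the most abundant at 1382 ± 249 FPKM (SD, n = 8), followed by Hspa8 at 982 ± 143, Hsp90ab1 at 790 ± 87.7, Hspe1 at 444 ± 49.3 and Hspd1 at 294 ± 41.6. Hsp90aa1 stood between place 51 and place 108 among all genes of a library. The order was the same in every library from Hspa8 down to Dnajb1, and Hsp90aa1 exceeded Hspa8 in 7 of 8 libraries. The remaining members lay lower: Dnajb1 at 85.9 ± 41.3 FPKM, Hspa1a at 80.5 ± 107, Hspa1b at 55.7 ± 47.6, Hsph1 at 41.7 ± 16.5 and Hspb1 at 31.4 ± 18.0. The means of neighbours among these 5 lay within their SDs over libraries, which include the high values of vehicle replicate 1. Within libraries, Dnajb1 exceeded Hspa1a, Hspa1a exceeded Hspa1b and Hsph1 exceeded Hspb1 in 7 of 8 each. Hspa1b exceeded Hsph1 in 6 of 8. The constitutive genes and Hsp90aa1 varied by 1.34 to 1.65 times between their lowest and highest library. The other 5 inducible members varied by 2.82 times (Hsph1) to 15.77 times (Hspa1a). Together the 10 members made up 0.431 ± 0.0522% of the summed FPKM with tacrolimus and 0.494 ± 0.0501% with vehicle (SD, n = 4 each).

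**Figure D1:**
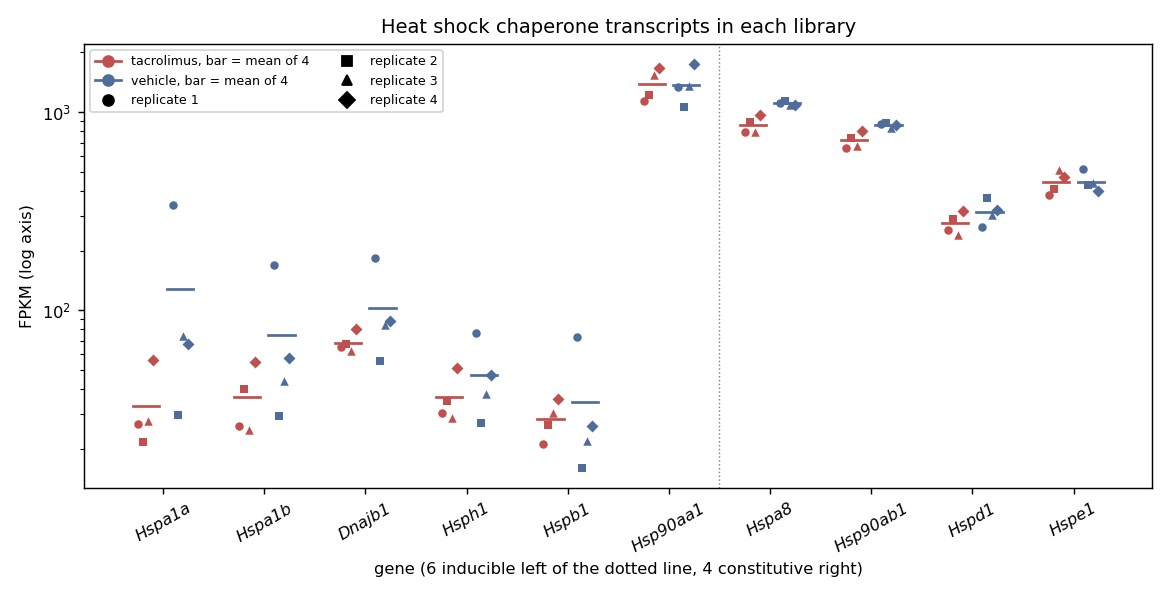
FPKM on a log axis for each of the 10 genes, with 1 point per library, shaped by replicate number, and a bar at the mean of each group of 4. Vehicle replicate 1 is the top point of Hspa1a (341 FPKM), Hspa1b, Dnajb1, Hsph1 and Hspb1, while the vehicle points of Hspa8 (1080 to 1137 FPKM) all lie above the tacrolimus points (789 to 961).

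The comparison between tacrolimus and vehicle asked whether the chaperones followed the treatment. In limma none of the 10 members was below an adjusted p of 0.05, nor was any of the 13032 genes tested (0%). Without vehicle replicate 1 a single gene was below it (0.00767%), which was not a member. At an unadjusted p under 0.05, 2 of the 10 members (Hspa8 and Hspa1a) were lower in the tacrolimus libraries, against 15.8% of all genes tested, and no member was higher, against 1.60% of all genes. In 9 of the 10 the mean log2 value was lower, beside 75.7% of all genes, and the median difference of the members was -0.28 beside -0.19 for all genes. The groups did not overlap for 2 of 10 members, Hspa8 and Hsp90ab1, both lower with tacrolimus, against 10.2% of all genes. No member was higher without overlap, against 0.767% of all genes. With the scaling that centres the typical gene, 6 members were lower and 4 higher, none passed an unadjusted p of 0.05 (5.57% of all genes were lower and 5.71% higher at that level), and only Hspa8 remained without overlap, against 3.39% of genes lower and 3.25% higher without overlap.

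The stress HSP70 pair had the largest differences among the members, and much of their size rested on 1 library. Hspa1a (ENSMUSG00000091971, GRCm38 chromosome 17, 34969190 to 34972156) was at 26.6, 21.6, 27.6 and 56.2 FPKM in tacrolimus replicates 1 to 4. In vehicle replicates 1 to 4 it was at 341, 29.7, 73.9 and 67.5 FPKM. Vehicle replicate 1 was 4.61 times above the next vehicle library, and vehicle replicate 2 lay among the tacrolimus values, so the groups overlapped. The means were 33.0 ± 15.7 FPKM for tacrolimus against 128 ± 143 for vehicle (SD, n = 4 each), a ratio of 0.26. The log2 difference, taken between the group means of log2(FPKM + 1) and so not the log2 of that ratio, was -1.43 (SE 0.61, limma adjusted p = 0.269). Over the alternatives the limma adjusted p ran from 0.101 to 0.951. Without vehicle replicate 1 the vehicle mean was 57.0 ± 23.9 FPKM and the log2 difference -0.76 (SE 0.37, limma adjusted p = 0.256). Hspa1b (ENSMUSG00000090877, chromosome 17, 34956436 to 34959238) was at 26.0, 39.9, 25.0 and 54.9 FPKM with tacrolimus and at 170, 29.4, 43.8 and 57.4 with vehicle. Its pattern was the same, with vehicle replicate 1 alone far above the rest. Its log2 difference was -0.77 (SE 0.47, limma adjusted p = 0.403), and -0.27 without that library.

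The split between Hspa1a and Hspa1b is uncertain. Of the 100-base windows of the Hspa1a transcript, 47.1% occur unchanged in Hspa1b, and 49.9% of those of Hspa1b occur in Hspa1a, so reads from these stretches fit both genes. Hspa1a also overlaps the gene model Gm20481 on the opposite strand, which had at most 2.75 FPKM; whether the counting used strand is not given in the sources used here. The sum of both genes depends little on the split, since the transcripts are of similar length (2967 and 2803 bases). It was 52.6, 61.5, 52.5 and 111 FPKM with tacrolimus and 510, 59.0, 118 and 125 with vehicle. Tacrolimus replicate 4 lay with vehicle replicates 3 and 4, and vehicle replicate 2 lay with the other tacrolimus libraries. The vehicle mean of the sum was 203 ± 207 FPKM, or 101 without replicate 1, against 69.4 ± 28.1 with tacrolimus.

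Dnajb1, Hsph1 and Hspb1 shared the high value in vehicle replicate 1, and their groups overlapped. Dnajb1, the J-domain protein that delivers substrates to HSP70 (ENSMUSG00000005483, chromosome 8, 83608193 to 83612653), was at 65.2, 67.6, 62.1 and 80.1 FPKM with tacrolimus and at 184, 55.6, 84.4 and 88.4 with vehicle. Its log2 difference was -0.45 (SE 0.30, limma adjusted p = 0.443) and -0.12 without vehicle replicate 1. Hsph1, whose product exchanges the nucleotide of HSP70 (ENSMUSG00000029657, chromosome 5, 149614287 to 149636376), was at 30.3, 35.0, 28.5 and 51.4 FPKM with tacrolimus. With vehicle it was at 76.3, 27.0, 37.7 and 47.2 FPKM, so the highest and the lowest library were both vehicle libraries. Its log2 difference was -0.30 (SE 0.30, limma adjusted p = 0.596) and -0.04 without vehicle replicate 1. Hspb1, an ATP-independent holdase (ENSMUSG00000004951, chromosome 5, 135887919 to 135889563), was at 21.0, 26.4, 30.4 and 35.8 FPKM with tacrolimus. With vehicle it was at 73.4, 16.0, 21.9 and 26.0 FPKM. Outside vehicle replicate 1 no vehicle library exceeded 26.0 FPKM, which 3 of the 4 tacrolimus libraries did, and the log2 difference turned from -0.04 (SE 0.39) to 0.40 (SE 0.22, limma adjusted p = 0.298) without that library.

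Hsp90aa1 behaved unlike the other inducible members. This stress-responsive HSP90 isoform (ENSMUSG00000021270, chromosome 12, 110690605 to 110702728) was at 1138, 1223, 1537 and 1674 FPKM with tacrolimus and at 1335, 1060, 1346 and 1744 with vehicle. Vehicle replicate 1 was in the middle of these values, and the groups overlapped along their whole range. The means were 1393 ± 254 and 1371 ± 282 FPKM, and the log2 difference was 0.03 (SE 0.19, limma adjusted p = 0.950).

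In the values as deposited, the constitutive cytosolic chaperones were the members whose groups separated, by a small amount. Of all genes tested, 10.2% were likewise lower with tacrolimus without overlap. Hspa8, the HSP70 that folds new proteins and uncoats clathrin (ENSMUSG00000015656, chromosome 9, 40800984 to 40810087), was at 797, 890, 789 and 961 FPKM with tacrolimus. With vehicle it was at 1111, 1137, 1090 and 1080 FPKM. Every vehicle library lay above every tacrolimus library, and the vehicle libraries were close together. The means were 859 ± 81.8 and 1105 ± 25.1 FPKM, and the log2 difference was -0.37 (SE 0.12, limma unadjusted p = 0.0133, adjusted p = 0.207). Its adjusted p ran from 0.190 to 0.595 over the alternatives, and the log2 difference was -0.36 without vehicle replicate 1. With median-of-ratios scaling the difference was -0.14 (SE 0.10, limma adjusted p = 0.595). Hsp90ab1, the HSP90 isoform expressed in unstressed cells (ENSMUSG00000023944, chromosome 17, 45567775 to 45573271), was at 660, 737, 678 and 800 FPKM with tacrolimus and at 871, 882, 835 and 857 with vehicle. The groups again did not overlap. The means were 719 ± 63.4 and 861 ± 20.4 FPKM, and the log2 difference was -0.26 (SE 0.12, limma adjusted p = 0.287). That difference was close to the median of all genes, and with median-of-ratios scaling it was -0.04 (SE 0.10) and the groups overlapped. T cell markers were lower with tacrolimus as well, and with their level as a covariate in limma the differences were -0.41 for Hspa8 (adjusted p = 0.239) and -0.30 for Hsp90ab1 (adjusted p = 0.335). Because the T cell marker level differs with treatment, treatment and cell content cannot be told apart for these genes.

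The mitochondrial pair overlapped between the groups. Hspd1 (ENSMUSG00000025980, chromosome 1, 55077835 to 55088243) was at 253, 289, 240 and 317 FPKM with tacrolimus and at 262, 366, 303 and 319 with vehicle. Its log2 difference was -0.18 (SE 0.15, limma adjusted p = 0.513). Hspe1 (ENSMUSG00000073676, chromosome 1, 55088132 to 55091307) was at 383, 409, 511 and 471 FPKM with tacrolimus and at 513, 427, 439 and 401 with vehicle. Its log2 difference was -0.01 (SE 0.14, limma adjusted p = 0.982). The genes start next to each other, and their order over the libraries differed: Hspd1 was lowest and Hspe1 second highest in tacrolimus replicate 3. The annotated genes overlap in their first bases on opposite strands, so reads there could be assigned to either if strand was not used. Pseudogenes named after Hspd1 and Hspe1 (11 in the files) had at most 1.71 FPKM in any library.

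**Figure D2:**
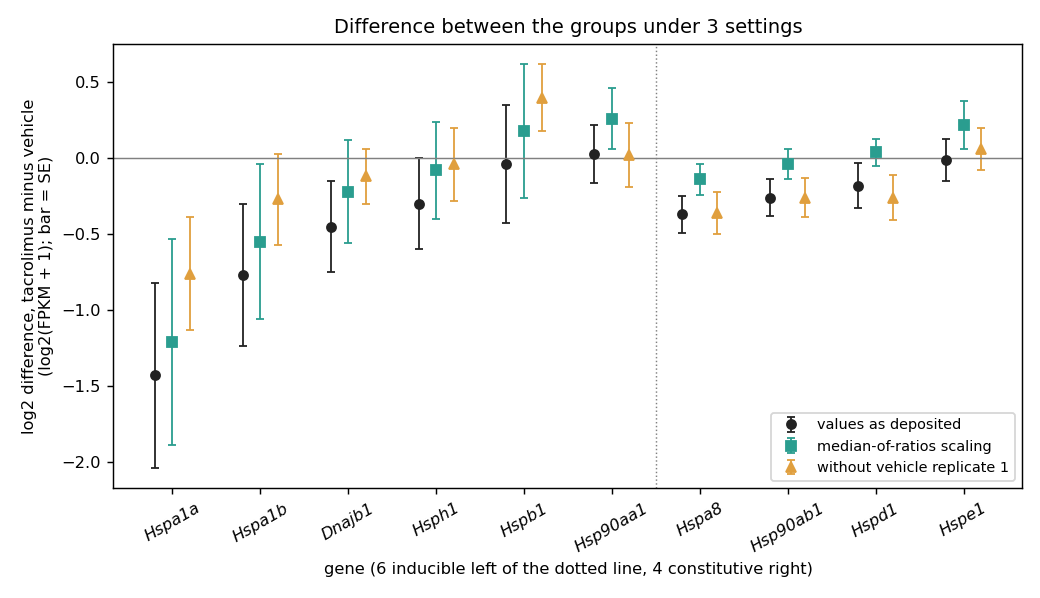
Log2 difference between tacrolimus and vehicle for each gene with its SE, in the values as deposited, after median-of-ratios scaling and without vehicle replicate 1. Hspa1a moves from -1.43 to -0.76 without that library, and Hspa8 from -0.37 to -0.14 with the scaling.

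Ratios between members within a library do not depend on the scaling of that library, and were used to set inducible against constitutive genes. They are given as descriptions with no test, since they are scores over chosen genes. Hspa1a and Hspa1b together amounted to 6.60, 6.91, 6.66 and 11.6% of the Hspa8 level with tacrolimus. With vehicle they amounted to 45.9, 5.19, 10.8 and 11.6%. Vehicle replicate 1 was several times above any other library in this ratio, and the other 7 libraries ran from 5.19 to 11.6%, where the groups overlapped. The log2 ratio of Dnajb1 to Hspa8 was -3.65 ± 0.06 with tacrolimus and -3.56 ± 0.73 with vehicle, where replicate 1 was at -2.59 and replicate 2 at -4.35 (SD, n = 4 each). Vehicle replicates 1 and 2 lay above and below all tacrolimus libraries, and vehicle replicates 3 and 4 among them. The log2 ratio of Hsph1 to Hspa8 was -4.60 ± 0.26 with tacrolimus and -4.66 ± 0.64 with vehicle, and the groups overlapped.

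Hsp90aa1 exceeded Hsp90ab1 in every library. The ratio of their FPKM values was 1.72, 1.66, 2.27 and 2.09 with tacrolimus and 1.53, 1.20, 1.61 and 2.04 with vehicle, and the groups overlapped. The mean log2 ratio was 0.94 ± 0.22 with tacrolimus and 0.65 ± 0.31 with vehicle (SD, n = 4 each). Hspe1 exceeded Hspd1 in every library, by a log2 ratio of 0.69 ± 0.27 with tacrolimus and 0.51 ± 0.33 with vehicle. Over all members, the mean log2(FPKM + 1) of the 6 inducible genes minus that of the 4 constitutive genes was -2.91 ± 0.22 with tacrolimus and -2.62 ± 0.83 with vehicle, a difference of -0.29. Without vehicle replicate 1 the vehicle mean was -2.98 and the difference 0.08, so its direction rested on that library.

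**Figure D3:**
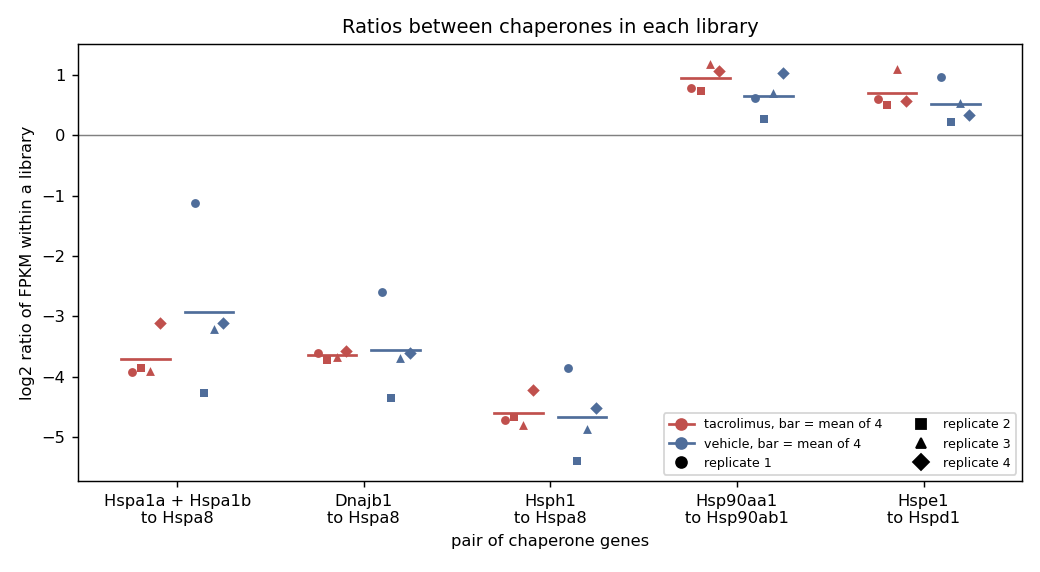
Log2 ratios of FPKM between pairs of chaperone genes within each library, with 1 point per library and a bar at the mean of each group of 4. Vehicle replicate 1 (circle) is the highest point of the 3 ratios to Hspa8, at -1.12 for Hspa1a plus Hspa1b, and vehicle replicate 2 (square) the lowest, at -4.27.

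Vehicle replicate 1 was the highest library for 5 of the 6 inducible members and for 1 of the 4 constitutive members, Hspe1. In the chaperone lists described below this ran from 0 of 14 genes (TRiC and prefoldin) to 7 of 18 (J-domain). The share of all genes highest in this library was not counted, so the count is not read as particular to the members. This library also had the most genes at 1 FPKM or more (13628). Against the median of the other 7 libraries, that library had 11.48 times the Hspa1a level, 4.26 times that of Hspa1b, 2.82 times that of Hspb1, 2.72 times that of Dnajb1 and 2.18 times that of Hsph1. It had 0.99 times the Hsp90aa1 level and 1.16 times that of Hspa8. The same library had 4.84 times the summed T cell markers, 4.33 times the macrophage and monocyte markers, 8.22 times the neutrophil markers and 0.69 times the melanoma markers. Its sum of stress and immediate-early genes (16 listed genes such as Fos, Jun and Egr1) was 2.07 times the median. The part of handling in the chaperone levels was not tested.

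With the T cell marker level as a covariate in limma, the differences of Hspa1a and Hspa1b were 0.07 (adjusted p = 0.951) and 0.04 (adjusted p = 0.976). With the macrophage marker level as a covariate, that of Hspa1a was -0.33 (adjusted p = 0.808) and that of Dnajb1 was 0.05 (adjusted p = 0.953). With the melanoma marker level as a covariate the limma differences were larger than without it, at -1.98 for Hspa1a (adjusted p = 0.101), -1.06 for Hspa1b (adjusted p = 0.319) and -0.70 for Dnajb1 (adjusted p = 0.214). T cell and macrophage markers have lower means with tacrolimus, so treatment and cell content cannot be told apart for these genes.

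The genes whose pattern over the 8 libraries was most like the mean profile of the inducible members were named by Pearson correlation of log2(FPKM + 1), among 11493 tested genes with a symbol that are neither members nor predicted models. Among them were Taf7 (r = 0.98), Ythdc1 (0.96), Pla2r1 (0.96) and Csf2rb (0.95). In all 4, vehicle replicate 1 was the highest library, which follows from the profile they were chosen by. Ythdc1 was at 30.3 FPKM there, where the others lay between 16.4 and 23.9. Pla2r1 was low, at 0.21 to 3.37 FPKM. For the constitutive members they were Xrn2 (0.99), Cct6a (0.99), Srsf2 (0.98), Rer1 (0.98) and Asf1b (0.98), of which Cct6a is a subunit of the cytosolic chaperonin TRiC. These are the highest of many correlations over 8 libraries that share treatment and cell content, and are given as a description with no p. Within the inducible profile Hsp90aa1 itself had r = 0.51, against 0.91 to 0.98 for the other 5 members. Within the constitutive profile Hspe1 had r = 0.30 and Hspd1 0.72, beside 0.94 for Hspa8 and 0.97 for Hsp90ab1. Each profile includes the member it is compared with, which raises these values.

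Other genes of the heat shock network were read from lists chosen by function. None of them was below an adjusted p of 0.05 in limma, and most had a slightly lower mean with tacrolimus, as did 75.7% of all genes. Of 5 heat shock factor genes, 3 were tested, and of these only Hsf1 was lower at an unadjusted p under 0.05 (15.8% of all genes). Hsf1, the main activator of the inducible genes, was at 24.5, 24.9, 17.8 and 28.9 FPKM with tacrolimus and at 28.5, 32.8, 29.8 and 33.7 with vehicle. Its groups overlapped only between tacrolimus replicate 4 and vehicle replicate 1, and the difference was -0.38 on the log2 scale (SE 0.16, limma adjusted p = 0.272). After median-of-ratios scaling the Hsf1 difference was -0.16, and no heat shock factor gene was lower at an unadjusted p under 0.05. In vehicle replicate 1 Hsf1 was the lowest of the vehicle libraries while Hspa1a was the highest. Hsf2 was at 3.50 ± 1.05 FPKM in the tacrolimus group, against 3.04 ± 0.486 for vehicle.

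Among other HSP70 and HSP110 genes, 6 of 9 were tested, all with a lower mean and none at an unadjusted p under 0.05; Hspa4, an HSP110 relative of Hsph1, was at 58.1 ± 3.60 and 72.5 ± 14.6 FPKM. Hspa1l, the testis HSP70 next to the stress pair on chromosome 17, was at most at 0.21 FPKM. Of 18 tested J-domain genes, 16 had a lower mean and 5 were lower at an unadjusted p under 0.05, against 15.8% of all genes. Dnaja4 was at 0.68, 0.25, 0.41 and 1.31 FPKM with tacrolimus and at 7.38, 2.43, 1.75 and 2.23 with vehicle. Its groups did not overlap, and its log2 difference of -1.31 (SE 0.36, limma adjusted p = 0.193) was -0.95 without vehicle replicate 1 and -1.19 after median-of-ratios scaling. Dnaja1, an abundant HSP70 partner, was at 135 ± 15.0 and 176 ± 27.1 FPKM (log2 difference -0.36, and -0.14 after median-of-ratios scaling). Dnajb6 and the endoplasmic reticulum protein Dnajb11 also did not overlap between the groups, with log2 differences of -0.35 and -0.47. Of all genes, 10.2% were lower without overlap. After median-of-ratios scaling the differences of Dnajb6 and Dnajb11 were -0.12 and -0.24. Of the J-domain genes 11 were then lower and 7 higher. At an unadjusted p under 0.05, 2 were lower (5.57% of all genes) and 1 higher (5.71%).

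All 12 HSP70 co-chaperones tested had a lower mean, 2 of them at an unadjusted p under 0.05 (15.8% of all genes), and after median-of-ratios scaling 6 were lower and 6 higher. Bag3, a nucleotide exchange factor induced by HSF1, was at 12.3, 17.1, 11.3 and 18.7 FPKM with tacrolimus and at 24.5, 18.7, 13.3 and 17.8 with vehicle, with overlap. Hspbp1 was at 23.9 ± 3.67 and 32.4 ± 5.13 FPKM. All 17 HSP90 co-chaperones tested had a lower mean, 3 of them at an unadjusted p under 0.05, against 15.8% of all genes (7 without vehicle replicate 1, when 19.2% of all genes were), with a median of -0.26 in the values as deposited and -0.04 after scaling. Stip1, which bridges HSP70 and HSP90, was at 88.0, 99.3, 82.3 and 105 FPKM with tacrolimus and at 113, 142, 125 and 119 with vehicle, without overlap (log2 difference -0.41, SE 0.13, limma adjusted p = 0.202). After median-of-ratios scaling the Stip1 difference was -0.18. Chordc1 was at 17.3 ± 2.30 and 25.4 ± 6.12 FPKM. The HSP90-bound immunophilins, relatives of the tacrolimus target FKBP12, overlapped between the groups: Fkbp4 was at 262 ± 33.3 and 322 ± 65.7 FPKM and Fkbp5 at 10.6 ± 2.18 and 13.8 ± 2.47.

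The small heat shock protein list had 4 of 9 genes tested, with none at an unadjusted p under 0.05. Cryab, which encodes alpha B-crystallin, was more abundant than Hspb1 in every library, at 169 ± 18.9 FPKM for tacrolimus against 188 ± 22.1 for vehicle, and vehicle replicate 1 was not high for it (168 FPKM). Of the 14 tested genes of the chaperonin TRiC and its helper prefoldin, 12 had a lower mean (75.7% of all genes), with a median of -0.15. After median-of-ratios scaling 13 were higher, with a median of 0.08, where 49.1% of all genes were lower. At an unadjusted limma p under 0.05, 1 was then higher (5.71% of all genes) and none lower. Of 14 organelle chaperones, all had a lower mean, 6 at an unadjusted p under 0.05 (15.8% of all genes) and 4 after median-of-ratios scaling (5.57% of all genes). Hspa5 (BiP), the HSP70 of the endoplasmic reticulum, was at 288, 293, 265 and 376 FPKM with tacrolimus and at 476, 461, 384 and 428 with vehicle. Its groups did not overlap, and its log2 difference of -0.52 (SE 0.14, limma adjusted p = 0.193) was larger than those of its cytosolic relative Hspa8 and of the HSP90 of that compartment, Hsp90b1 (250 ± 34.3 and 290 ± 31.6 FPKM, -0.22). After median-of-ratios scaling the log2 differences were -0.30 for Hspa5, -0.14 for Hspa8 and 0.01 for Hsp90b1. These differences between genes were not tested.

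Stress and immediate-early genes, which respond to handling as well as to receptor signals, had a median log2 difference of -0.95 over 15 tested genes, beside -0.37 for the inducible and -0.22 for the constitutive chaperones. Without vehicle replicate 1 these medians were -0.57, -0.08 and -0.26, so the order of the inducible and constitutive chaperones rested on that library. All 15 had a lower mean (75.7% of all genes), 12 at an unadjusted p under 0.05 (15.8% of all genes). After median-of-ratios scaling 6 were lower at that level (5.57% of all genes), and without vehicle replicate 1, 10 were (19.2% of all genes). Fos was at 285, 345, 205 and 282 FPKM with tacrolimus and at 429, 360, 571 and 413 with vehicle, without overlap (log2 difference -0.67, SE 0.19, limma adjusted p = 0.193). After median-of-ratios scaling the Fos difference was -0.44. Fosb was at 9.53 ± 2.03 and 22.4 ± 5.62 FPKM and Jun at 70.7 ± 14.2 and 99.0 ± 16.7. As Hspa1a was, 11 of the 15 genes were highest in vehicle replicate 1, among them Jun (the share of all genes was not counted). Fos was highest in vehicle replicate 3 and Fosb in vehicle replicate 2. Junb is listed at 0 in all 8 libraries and was not used.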

How the data were processed

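The 10 members and all gene lists were chosen with earlier results of these data known. HISAT2 2.1.0, RSEM 1.3.1, DESeq2 1.24.0 and genome build GRCm38.p6 appear, without role or order, in the submitters' processing notes. The deposited files hold 1 value per gene; their unit is stated nowhere and was inferred from the values as FPKM, scaled by the authors for length and library size. Depth was estimated from the steps of low values of genes with a single transcript of 500 to 1500 bases; 85.3% to 87.3% of these lay within 0.15 steps of a whole multiple (30.0% for evenly spread values). Counts were not recovered and no count model was used. Groups were taken from the sample titles.

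Genes reaching 1 FPKM in 4 libraries or more were compared with limma 3.58.1 in R 4.3.3 on log2(FPKM + 1), which understates changes of low genes, with Benjamini-Hochberg adjustment over 13032 genes. Genes named are the members, in each network list the 3 lowest unadjusted p-values, and a set of named regulators, not all of which are printed; Hspa1l and Junb were named after their values were seen. On simulated data of this comparison (12803 genes), limma recovered 49 of 99 genes changed by 1 and 93 of 98 changed by 2 on the log2 scale, and called 12 of 12606 unchanged genes. The simulation drew each gene independently, without the differences in cell content that genes of a library share, and changed no genes of low level. Recovery in the real libraries can therefore differ from these rates. No pair of libraries shared more than 0.222% of values among expressed genes. Symbols and coordinates are GENCODE M21, start regions RefSeq; 346 identifiers had no symbol. Python 3.11.15 and matplotlib 3.10.9 made the remaining tables and plots. A gene that the rule on likeness names is not reported here.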

Additional observations from a re-analysis of the deposited data

Results flagged for a closer look

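Hspa1a in vehicle replicate 1, at 340.83 FPKM, lay far from the other vehicle libraries for its group's range. Among the scores within a library, tacrolimus replicate 4 lay apart from the other tacrolimus libraries in the inducible minus constitutive level (-2.59) and in the log2 ratio of Hspa1a plus Hspa1b to Hspa8 (-3.11). Tacrolimus replicate 3 lay apart in the log2 ratio of Hspe1 to Hspd1 (1.09), and tacrolimus replicate 2 in that of Hspa1a to Hspa1b (-0.88), where the split of shared reads is uncertain. In all, 5 of 38 groups of 4 values were this uneven (by the gap to the nearest library over the range of the group), where chance flags about 1 in 20. The scores share members and are not independent.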

How the results depend on the processing

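No member passed an adjusted p of 0.05 under any of the 21 alternatives, and Hspa8 and Hsp90ab1 were lower with tacrolimus under all of them. Over all genes, 341 passed with the melanoma marker level as a covariate and 121 with the replicate block, none of them a member; leaving out 1 library gave 0 to 1 gene, the 1 without vehicle replicate 1. The labels do not state that the replicate numbers pair the mice. Deviations of same-numbered libraries correlated at 0.21, 0.28, -0.02 and -0.02. Replicates 1 and 2 correlated best with their own number, and replicates 3 and 4 did not. These values do not decide whether mice were paired. The direction of a member turned in 26 of 210 combinations, over 8 members. With the T cell covariate the differences were 0.07 for Hspa1a, 0.04 for Hspa1b, 0.20 for Hsph1, 0.74 for Hspb1, 0.11 for Hspe1 and 0.19 for Dnajb1. With the macrophage covariate they were 0.16 for Hsph1, 0.73 for Hspb1, 0.13 for Hspe1 and 0.05 for Dnajb1. With median-of-ratios and with upper-quartile scaling alike they were 0.18 for Hspb1, 0.22 for Hspe1 and 0.04 for Hspd1, and with library weights 0.13 for Hspb1 and -0.04 for Hsp90aa1. The cause was not tested. Leaving out 1 library at a time gave -0.31 to 0.40 for Hspb1, -0.08 to 0.06 for Hspe1 and -0.09 to 0.15 for Hsp90aa1. The inducible minus constitutive difference ran from -0.59 (without vehicle replicate 2) to 0.08 (without vehicle replicate 1). Scaling to a sum of 1000000, chosen after seeing the data, turned no direction.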
